A study of Mus musculus with 15 samples.

Results

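BC064078 and 9 neighbouring genes of the natural killer (NK) gene complex, on mouse chromosome 6, were followed in the ileum of mice labelled as Rfx6 mutants or controls. BC064078 (ENSMUSG00000087150) was chosen on measured values: its count was higher in the libraries labelled mutant at 8 days and lower at 3 months. The other 9, chosen with earlier results of these data known, are lectin-type receptor genes of the same stretch: BC035044 (ENSMUSG00000090164), Clec2i (ENSMUSG00000030365), Clec2g (ENSMUSG00000000248), Klrb1b (ENSMUSG00000079298), Klrb1f (ENSMUSG00000030154), Clec2e (ENSMUSG00000030155), Clec2d (ENSMUSG00000030157), Cd69 (ENSMUSG00000030156) and Clec12a (ENSMUSG00000053063). All 10 were found, among 37620 gene identifiers. The values that chose BC064078 are given below as a description, with no test.

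The libraries were made from RNA of the ileum, the distal small intestine, of 15 adult mice. The protocol names ribosomal depletion of total RNA and the molecule label polyA RNA, and which applies was not settled. Animals labelled mutant were Rfx6f/f and carried Vilin-CreERT2, a tamoxifen-inducible Cre recombinase driven by the Villin promoter of the intestinal epithelium. That promoter is not active in immune cells, in which several of the 10 genes are best known. The 8-day cohort held 3 Rfx6f/f controls and 4 mutants, and the 3-month cohort held 4 controls, of which 2 were Rfx6f/f and 2 were Rfx6f/+, and 4 mutants. Controls are labelled without the recombinase, and all groups were given tamoxifen by gavage. Ages were not in the labels, and each library came from 1 animal.

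The libraries held 30.5 to 54.5 times 1000000 counts at 8 days and 26.1 to 36.3 times 1000000 at 3 months. The total count of Rfx6 did not separate the labels downward: it stood at 1.37 to 1.65 counts per 1000000 (CPM) in 8-day controls and 1.47 to 2.1 CPM in 8-day mutants, then at 1.46 to 1.74 CPM in 3-month controls and 2.26 to 3.34 CPM in 3-month mutants. A count summed over a whole gene does not show whether the loxP-flanked part was lost, so mutant is used throughout as the name of a label. Hormone genes of enteroendocrine cells did separate the labels. Gcg stood at 37.2 to 44.5 CPM in 8-day controls and 1.25 to 3.58 CPM in 8-day mutants, and at 38.6 to 69.1 CPM in 3-month controls and 0 to 0.174 CPM in 3-month mutants. Pyy and Cck were likewise lower in every mutant library than in any control of the same time. Of the 5 enteroendocrine markers, Chga, Gcg, Cck, Pyy and Tph1, 2 were called lower at 8 days, against 0.0915% of all genes called, and 3 lower and 2 higher at 3 months, against 9.28%. Markers of epithelium summed to 4593 to 7574 CPM in every library, and markers of T, B, NK and myeloid cells were also counted, so the tissue was a mixture. In such bulk tissue, fewer cells of a type and less RNA per cell cannot be told apart.

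The NK gene complex holds families of C-type lectin-like receptors and their ligands side by side. The Klrb1 genes encode receptors of the NKR-P1 family on NK cells and related lymphocytes, and the Clec2 genes encode their ligands, the Clr proteins. Clec2d encodes Clr-b, the ligand of the inhibitory receptor encoded by Klrb1b, and Clec2i encodes Clr-g, a ligand of the receptor encoded by Klrb1f. Such pairs let a tissue cell signal its presence to innate lymphocytes, and some Clec2 genes are known for expression in intestinal epithelium.

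In the GENCODE M21 annotation the stretch from Klrb1b to Clec12a held 30 genes, of which 17 were in the count tables. Their order was Klrb1b, BC035044, Clec2i, Clec2g, BC064078, Klrb1f, Clec2e, Clec2d, Cd69 and Clec12a, with other genes between them. BC064078 is annotated there as a transcribed unprocessed pseudogene, that is, a duplicated gene copy that is transcribed without a known protein. Its longest transcript, of 2299 bases, matched that of Clec2g at 91.47% identity over 211 bases, Clec2d at 90.91% over 132, Clec2i at 85.83% over 120 and Clec2e at 83.49% over 109. The start of the BC064078 transcript is printed with the promoter windows of 3 of these relatives, from 250 bases before to 50 bases after the RefSeq start (GRCm38.p6), to show which of them its first bases resemble. Capitals mark, in each window, the stretch that aligned with BC064078, and in BC064078 the stretch that aligned with the Clec2d window.
BC064078, bases 1 to 200 of its longest transcript: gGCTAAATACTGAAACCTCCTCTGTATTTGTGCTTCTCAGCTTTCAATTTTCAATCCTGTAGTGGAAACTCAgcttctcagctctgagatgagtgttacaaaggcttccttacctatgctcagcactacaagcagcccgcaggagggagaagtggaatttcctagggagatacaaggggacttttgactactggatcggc
Clec2d, chr6:129180365-129180664, plus strand: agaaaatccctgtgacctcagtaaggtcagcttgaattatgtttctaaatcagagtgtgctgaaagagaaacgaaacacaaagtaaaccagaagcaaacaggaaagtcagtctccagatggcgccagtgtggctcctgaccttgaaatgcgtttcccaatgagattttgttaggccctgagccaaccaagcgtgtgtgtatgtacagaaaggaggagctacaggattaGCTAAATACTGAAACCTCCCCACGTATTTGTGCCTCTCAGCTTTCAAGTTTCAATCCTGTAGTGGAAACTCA
Clec2g, chr6:128934131-128934430, plus strand: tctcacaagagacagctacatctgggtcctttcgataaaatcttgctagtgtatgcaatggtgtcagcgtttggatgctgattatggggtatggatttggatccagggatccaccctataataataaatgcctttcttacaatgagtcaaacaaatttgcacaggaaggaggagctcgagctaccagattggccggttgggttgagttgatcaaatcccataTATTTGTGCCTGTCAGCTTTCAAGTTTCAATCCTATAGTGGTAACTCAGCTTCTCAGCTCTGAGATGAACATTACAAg
Clec2e, chr6:129100854-129101153, minus strand: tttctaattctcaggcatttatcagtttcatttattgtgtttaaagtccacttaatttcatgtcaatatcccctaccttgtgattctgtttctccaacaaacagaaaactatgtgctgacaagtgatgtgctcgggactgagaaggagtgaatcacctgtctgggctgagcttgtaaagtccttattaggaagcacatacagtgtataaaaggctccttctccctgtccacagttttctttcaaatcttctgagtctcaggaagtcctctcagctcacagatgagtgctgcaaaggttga

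In the Clec2d window the aligned stretch covered 72 positions, from base 2 to base 72 of BC064078, at 93.06% identity with 4 mismatches and 1 gap position. In the Clec2g window it covered 77 bases, from base 25 to base 101 of BC064078, at 89.61% identity with 8 mismatches. No stretch of the Clec2e window aligned at the threshold used, so it is in lower case throughout. The RefSeq table had promoters for 8 of the 10 members. BC064078 and Cd69 had none in that table. Both strands of the 8 promoters were searched for 4 short motifs. The RFX half-site GTTGCC, the CDX2 core TTTATG and the HNF4A site CAAAGTCC were in none of the 8, against 12.5%, 11.9% and 1.42% of 32851 promoters of the same length. The GAS element, bound by STAT factors and searched as TTCNNNGAA, was in the promoter of Klrb1f alone, against 8.3% of all promoters. These searches describe letters in the windows only.

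Near-identical copies can share reads. Of all 50-base windows in the members' transcripts, 27.17% of those of Klrb1b also occurred in another gene, mainly in Gm44511. That annotated gene shares 599 bases of exon with Klrb1b on the same strand and is not in the count tables. The share was 4.13% for Clec2i and 3.9% for Clec2g, which share 1915 aligned bases at 91.38% identity, and 1.98% for Clec2d. It was 0.34% for BC064078 and 0.46% or less for the other 5. Counts of Clec2i and Clec2g are therefore less certain than those of BC064078. The spans of BC035044 and Clec2i overlap by 3539 bases on opposite strands, with 0 bases of shared exon, and whether the counting used strand is not given in the sources used here.

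BC064078 was the member with the widest fold range over the study, from 2.07 to 30.6 CPM. The 8-day controls stood at 2.64, 2.12 and 2.07 CPM, and the 8-day libraries labelled mutant at 8.51, 6.21, 7.73 and 8.06 CPM. At 3 months the controls stood at 28.8, 26.1, 23.8 and 30.6 CPM, and the libraries labelled mutant at 17.9, 21.3, 15.5 and 19.7 CPM. All 4 groups were separate, with no library of one group inside the range of another. As log2 fold changes, the mutant label was higher by 1.74 (SE 0.17; 3.35-fold) at 8 days and lower at 3 months, at -0.54 (SE 0.12; 1.45-fold lower), a difference of -2.30 (SE 0.19) between the times. The controls themselves differed more: 3-month controls were 12.0-fold above 8-day controls, at a log2 fold change of 3.59 (SE 0.16). Raw counts ran from 77 to 110 in 8-day controls and from 621 to 888 in 3-month controls, so none of these values rested on a few reads. The comparison of controls across times shares its libraries with the comparisons that chose the gene, and time after tamoxifen, age, cohort and separate processing cannot be told apart in it.

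**Figure D1:**
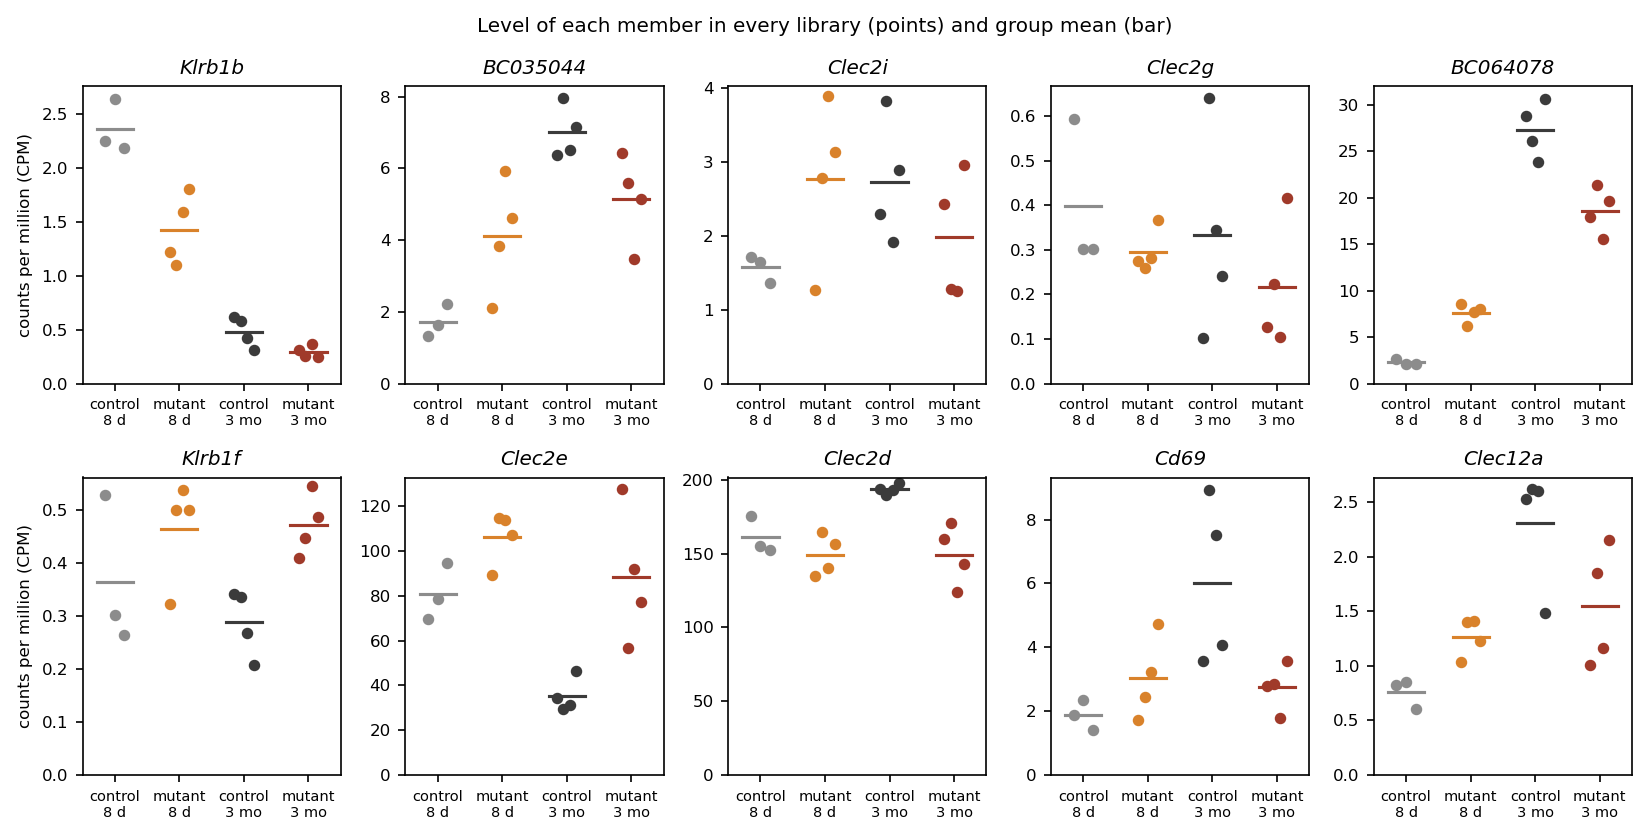
Level of each member in CPM (linear axis from 0, own scale per panel) in every library, by group, with the group mean as a bar and panels in gene order. BC064078 takes 4 separate levels, from 2.07 CPM in 8-day controls to 30.6 CPM in 3-month controls, while Clec2e is low only in the 3-month controls, at 29.5 to 46.6 CPM.

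Per kilobase of exon, which allows levels of different genes to be compared, the members spanned 0.0360 to 163 CPM per kb over all libraries. Clec2d was highest in every group, with group means of 123 to 160 CPM per kb, and Clec2e was next, with 16.9 to 50.6. No library overlapped between these 2 genes. BC064078 was at place 5 in 8-day controls, at 0.894 ± 0.124 CPM per kb (SD, n = 3), and its libraries overlapped those of BC035044 (1.08 ± 0.284) and Klrb1b (1.06 ± 0.110) at places 3 and 4. It was at place 3 in each other group: 3.00 ± 0.391 in 8-day mutants (n = 4), where BC035044 at 1.34 to 3.73 overlapped it, then 10.7 ± 1.17 in 3-month controls and 7.30 ± 0.976 in 3-month mutants (n = 4 each). At 3 months it lay below every Clec2e library and above every BC035044 library of its group. Klrb1b moved the other way, from place 4 in 8-day controls to place 8 in 3-month controls. Clec2g, Klrb1f and Clec12a stayed at or below 0.475 CPM per kb in every library, and the ranges of all 3 overlapped in 8-day controls.

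**Figure D2:**
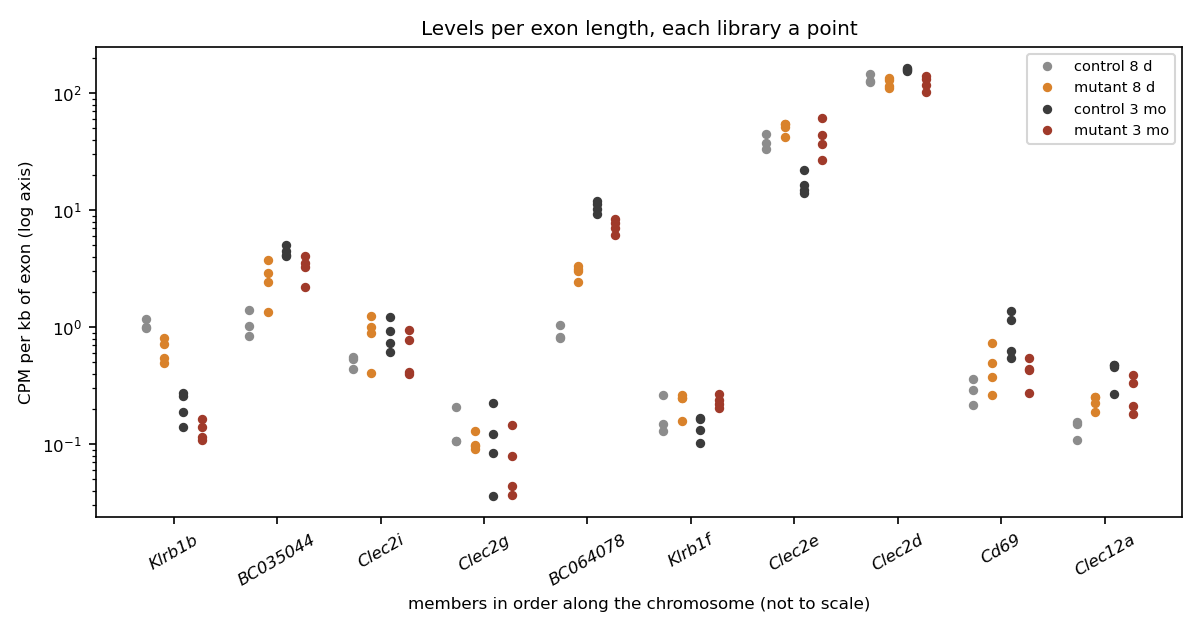
Level of each member in CPM per kb of exon (log axis) in every library, coloured by group, with the members in order along the chromosome. Clec2d and Clec2e stand above 10 CPM per kb in all 15 libraries, and BC064078 crosses that level only in 3-month controls.

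Among the ligands, Clec2e and Clec2d passed the test at 3 months, in opposite directions. Clec2e, which encodes Clr-a, stood at 34.5, 29.5, 31.1 and 46.6 CPM in 3-month controls and at 128, 56.6, 91.7 and 77.0 CPM in 3-month libraries labelled mutant. The groups did not overlap, and the mutant mean was 2.51-fold higher (log2 fold change 1.33, SE 0.24, edgeR adjusted p = 0.017). Clec2d stood at 194, 190, 193 and 198 CPM in 3-month controls and at 160, 171, 124 and 143 CPM in libraries labelled mutant. Again the groups did not overlap, and Clec2d fell 1.28-fold (log2 fold change -0.36, SE 0.093, edgeR adjusted p = 0.0455). Of the 9 members other than BC064078, 8 passed the filter on low counts at 3 months and 2 were called, 1 in each direction, where 9.28% of 17085 genes were called. Their median log2 fold change was -0.45, against 0.0077 over all genes tested. DESeq2 and the fit of all 15 libraries called both (Clec2e at adjusted p 1.1e-06 and 0.00176, Clec2d at 0.00571 and 0.0179). The edgeR call of Clec2e was lost without control replicate 1, 2 or 3 (1.32, 1.25 and 1.27, adjusted p 0.0556 to 0.0577). That of Clec2d was lost without any 1 of the 8 libraries except mutant replicate 2 (adjusted p up to 0.105), with values of -0.43 to -0.28 over all its alternatives. With the 2 Rfx6f/f controls alone neither was called (1.13 and -0.38, adjusted p 0.179 and 0.223).

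Other members at 3 months missed the threshold. Cd69, an early activation and tissue-residency marker of lymphocytes, stood at 3.59, 8.94, 7.51 and 4.07 CPM in controls and at 2.80, 2.85, 1.79 and 3.58 CPM in libraries labelled mutant. Its groups were adjacent without overlap, and the log2 fold change was -1.12 (SE 0.32) with an adjusted p of 0.0612. The upper 2 of these controls were the Rfx6f/+ animals, and with Rfx6f/f controls alone the value was -0.47. DESeq2, which called 16.6% of 17675 genes at 3 months, and the fit of all 15 libraries, which called 2271 of 17959, both called Cd69 lower (adjusted p 0.00599 and 0.0444). Klrb1f, a receptor for Clr ligands, was counted 6 to 11 times in control and 13 to 21 times in mutant libraries, without overlap (0.72, SE 0.24, adjusted p = 0.0906). Its count was under 10 in 2 of the 4 controls and above 10 in all 4 libraries labelled mutant, so it met the minimum count of the filter through the group where it is higher. Groups without overlap at 3 months were seen for 19.4% of the 17085 genes tested. Klrb1b, the inhibitory receptor for Clr-b, had 7 to 19 counts in each 3-month library and a value of -0.68 (SE 0.28, adjusted p = 0.15). BC035044 (-0.43), Clec2i (-0.46) and Clec12a (-0.57) had overlapping groups and adjusted p from 0.151 to 0.372. Clec2g, at 3 to 21 counts, did not pass the filter at 3 months.

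At 8 days 0 of the 9 members were called by edgeR, where 0.0915% of 17493 genes were called. An unadjusted p under 0.05 was reached by 5 of the 9 and by 8.8% of all genes tested. DESeq2 called 1 of the 9, BC035044 (adjusted p = 0.0221), and 0.99% of 17772 genes. The median log2 fold change of the 9 was 0.39, against -0.0020 over all genes tested. BC035044, a lectin-like gene, stood at 1.32, 1.62 and 2.21 CPM in controls and at 2.12, 3.84, 5.91 and 4.63 CPM in libraries labelled mutant. Its lowest mutant library lay within the control range, and the log2 fold change was 1.25 (SE 0.34, edgeR adjusted p = 0.460). Without that library, mutant replicate 1, the value was 1.46 and the adjusted p 0.0445. Clec2i stood at 1.72, 1.65 and 1.36 CPM in controls and at 1.27, 2.78, 3.89 and 3.13 CPM in libraries labelled mutant, with the same library lowest (0.81, SE 0.34, adjusted p = 0.536).

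Groups that did not overlap at 8 days were seen for 2 of the 9, Klrb1b and Clec12a, and for 7.68% of the 17493 genes tested. Klrb1b stood at 2.25, 2.64 and 2.19 CPM in controls and at 1.22, 1.10, 1.59 and 1.80 CPM in libraries labelled mutant (-0.74, SE 0.21, adjusted p = 0.460). Clec12a, an inhibitory receptor of myeloid cells, stood at 0.826, 0.852 and 0.603 CPM in controls and at 1.04, 1.40, 1.41 and 1.23 CPM in libraries labelled mutant (0.75, SE 0.22, adjusted p = 0.460). Neither passed the test. Clec2e at 0.39 (SE 0.12, adjusted p = 0.460), Cd69 at 0.68, Klrb1f at 0.38, Clec2d at -0.11 and Clec2g at -0.41 had overlapping groups.

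**Figure D3:**
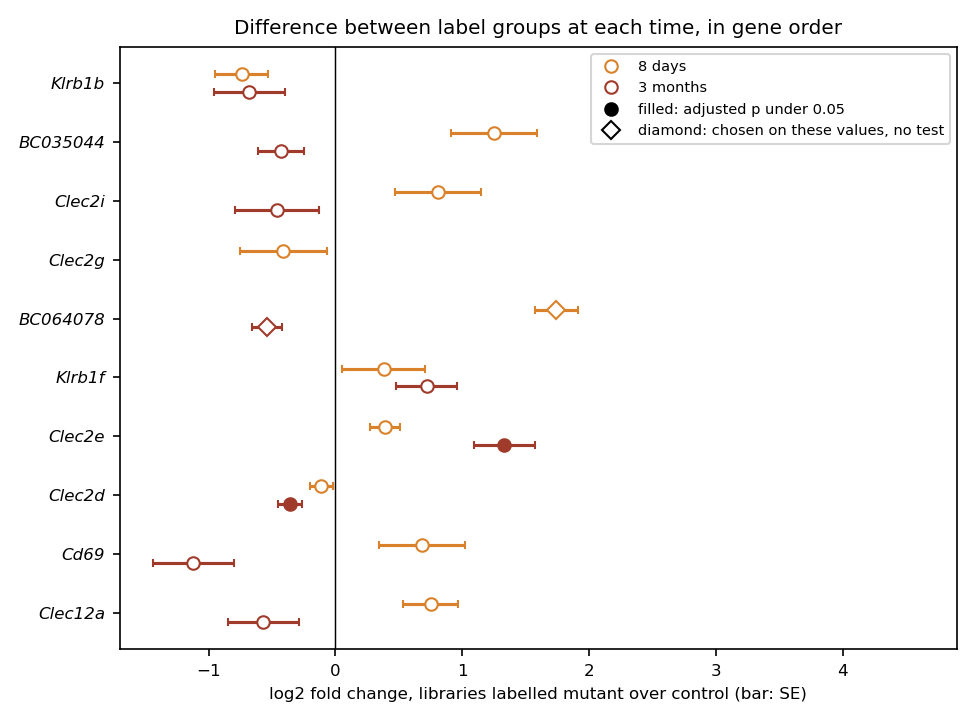
Log2 fold change of libraries labelled mutant over control (x axis, bars are SE) for each member in gene order at 8 days and 3 months. BC064078, drawn as diamonds because it was chosen on these values, lies at 1.74 and -0.54. The 2 filled points, Clec2e and Clec2d at 3 months, are the members with an adjusted p under 0.05, and Clec2g has no point at 3 months.

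Whether the mutant effect differed between the times was tested for the 9 in a joint fit. None was called by edgeR, where 0.785% of 17959 genes were called, and 5 of 9 reached an unadjusted p under 0.05, as did 16.6% of all genes tested. BC035044 came closest (difference -1.69, SE 0.40, adjusted p = 0.0558), followed by Cd69 (-1.82, SE 0.51, adjusted p = 0.0867) and Clec12a (-1.34, SE 0.38, adjusted p = 0.0874). Clec2i had a difference of -1.29 (SE 0.51, adjusted p = 0.210). Clec2e was positive at both times, with a difference of 0.93 (SE 0.30, adjusted p = 0.127). Klrb1b had negative values at both times, with a difference of 0.035 (SE 0.41). DESeq2 called 4 of the 9 in this comparison, BC035044, Clec2e, Cd69 and Clec12a, and 5.71% of 17803 genes.

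The 3-month controls differed from the 8-day controls for 6 of the 9 members, 4 higher and 2 lower, where 45.1% of 17959 genes were called. Their median log2 fold change was 0.27, against 0.018 over all genes tested. Klrb1b stood at 2.25, 2.64 and 2.19 CPM in 8-day controls and 0.615, 0.580, 0.422 and 0.310 CPM in 3-month controls, and was 4.84-fold lower (log2 fold change -2.27, SE 0.24, edgeR adjusted p = 1.1e-05). Its ligand gene Clec2d was slightly higher, from 153 to 176 CPM in 8-day controls to 190 to 198 CPM (0.27, SE 0.10, adjusted p = 0.0400), and this call was lost without any 1 of 6 of the 7 control libraries (adjusted p up to 0.140), without the filter on low counts (0.0753) and with Rfx6f/f controls alone (0.12). Clec2e was 2.28-fold lower (-1.19, SE 0.22, adjusted p = 6.6e-04). BC035044 was 4.04-fold higher (2.01, SE 0.30, adjusted p = 1.5e-04), Cd69 3.22-fold higher (1.69, SE 0.39, adjusted p = 0.00293) and Clec12a 3.06-fold higher (1.61, SE 0.29, adjusted p = 4.9e-04). With Rfx6f/f controls alone Cd69 too was no longer called (1.02, adjusted p = 0.0593). Clec2i (0.80, adjusted p = 0.097), Clec2g and Klrb1f did not pass the test.

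Between the control genotypes of 3 months, Rfx6f/+ against Rfx6f/f with 2 libraries each, 0 of the 9 members were called, where 0% of 17780 genes were called by edgeR. Over all genes 1220 (6.86%) reached an unadjusted p under 0.05 and DESeq2 called 42. Cd69 alone among the 9 reached an unadjusted p under 0.05 (1.09, SE 0.29, unadjusted p = 0.00499, edgeR adjusted p = 0.648). BC064078 stood at 26.1 and 23.8 CPM in the Rfx6f/+ libraries and at 28.8 and 30.6 CPM in the Rfx6f/f libraries.

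Other genes of the NK gene complex were read from a list of 51 symbols, of which 44 were in the tables and 36 were not members. At 8 days 0 of 16 tested were called, against 0.0915% of all genes. At 3 months 5 of 14 tested were called, against 9.28% of all genes, with Clec1b (log2 fold change 3.11), Clec7a (0.82) and Clec9a (1.09) higher and the Ly49 genes Klra2 (-0.70) and Klra17 (-1.19) lower (edgeR adjusted p 0.00209 to 0.0415). Clec1b had 4 to 10 counts in 3-month controls and 51 to 105 in 3-month mutants. It met the minimum count of the filter through the group where it is higher. Clec1b encodes CLEC-2, a platelet receptor, Clec7a the fungal receptor dectin-1, and Clec9a a receptor of dendritic cells. The difference between times was called for 1 of 17, Clec1b (2.67, adjusted p = 0.0101), against 0.785% of all genes. Between the controls of the 2 times 4 of 17 were higher (Klrk1, Klra2, Klra5 and Klra17) and 2 lower (Klrb1c and Clec1b), where 45.1% of all genes were called. Klra5 had 3 to 10 counts in 8-day controls and 15 to 35 in 3-month controls, and Clec1b had 51 to 112 and 4 to 10. In this fit, which also gave the difference between times, both met the minimum count of the filter through groups where they are higher. Clec2h, which encodes Clr-f, was the most counted of the list, with group means of 1086 to 1568 CPM, and its values of 0.11 at 8 days and 0.35 at 3 months did not pass the test (adjusted p 0.927 and 0.213).

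The genes most like BC064078 in pattern were ranked by Pearson correlation of log2 CPM over the 15 libraries, among 14230 genes. The first 5 were Actr6 (r = 0.94), Osbpl8 (0.94), Scand1 (0.92), Snx5 (0.92) and St8sia4 (0.92). Of the members in that ranking, BC035044 stood at rank 127 (0.87) and Clec12a at rank 528 (0.82), while Clec2e was at -0.54. These values describe the 4 group levels that the libraries share. After each library was centred on its group mean, BC035044 was at -0.072 and Clec12a at 0.060, and the 5 nearest genes were Slc25a22 (0.90), Skil (0.86), Mxd1 (0.85), Dynll2 (0.85) and Etv3 (0.81). None of the 5 genes was in both sets. Klrb1b ran opposite to BC064078 over the 15 libraries (r = -0.91, rho = -0.76) and was at -0.050 within groups.

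Some members moved with cell type markers. Of 80 correlations between the 10 members and 8 marker lists, 7 had a within-group r of at least 0.6 in size, a limit set after the values were seen, and all 7 are given here. Clec2i followed the summed level of 6 B cell markers (r = 0.91, rho = 0.94 over 15 libraries, r = 0.87 without the 2 libraries farthest from the median marker level). Within groups r was 0.87, and 0.76 without the 2 farthest libraries. The B cell sum was 15.1, 24.3 and 46.9 CPM in the 8-day controls and 18.6, 113, 241 and 259 CPM in the 8-day libraries labelled mutant. All 6 B cell markers reached an unadjusted p under 0.05 at 8 days, against 8.8% of all genes, and 0 were called, against 0.0915%, with a median log2 fold change of 2.61. At 3 months 0 of 6 were called, against 9.28% of all genes, with a median of -1.31. BC035044 was at r = 0.81 with the B cell sum within groups (0.82 without the 2 farthest), and Cd69 at 0.60 (0.45 without them). BC064078 was at -0.10 with that sum. Its largest within-group values were 0.57 with the T cell sum (0.33 without the 2 farthest libraries), 0.53 with the epithelium sum (0.58) and -0.52 with the smooth muscle sum (-0.29).

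Klrb1b followed the sum of 6 myeloid markers within groups (r = 0.80, rho = 0.74, and 0.77 without the 2 farthest libraries), while over the 15 libraries it ran opposite to that sum (r = -0.65). The myeloid sum was 251 to 289 CPM in 8-day controls, 278 to 347 in 8-day mutants, 341 to 424 in 3-month controls and 320 to 414 in 3-month mutants. Its markers did not move together at 3 months: 1 of the 6 was called higher and 1 lower, where 9.28% of all genes were called. Mean Csf1r was 76.0 CPM in 3-month controls and 114 in mutants, Lyz2 192 and 146, and Itgam 52.3 and 29.3.

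Clec2e ran opposite to the summed level of 8 NK and cytotoxic markers (within groups r = -0.77, rho = -0.74, and -0.67 without the 2 farthest libraries). That sum was 89.9 to 131 CPM in 8-day controls, 77.0 to 112 in 8-day mutants, 196 to 258 in 3-month controls and 77.9 to 154 in 3-month mutants. By group means, most of that sum came from Gzma (22.9 to 118 CPM), Gzmb (9.20 to 40.8) and Itga2 (54.1 to 59.2). Ncr1 (0.443 to 1.01) and Eomes (0.129 to 0.292) added little. From 3-month controls to mutants, mean Gzma went from 118 to 28.7 CPM, Itga2 from 54.1 to 56.6 and Ncr1 from 1.01 to 0.872. Of the T cell markers, 6 of 8 were called lower in libraries labelled mutant at 3 months, and so were 2 of the 7 NK and cytotoxic markers tested, where 9.28% of all genes were called in either direction. The T cell sum was 90.9 to 114 CPM in controls and 32.2 to 72.5 CPM in mutants. Cd69 followed the T cell sum (within groups r = 0.67, and 0.71 without the 2 farthest libraries). The enterocyte genes Fabp6 and Slc10a2 summed to 2467 to 3175 CPM in 3-month controls and 839 to 1460 CPM in mutants. Of these 2 genes 1 was called lower, and Slc10a2 alone overlapped between the groups (459 to 596 and 195 to 519 CPM). Clec2d followed their sum at r = 0.64 within groups, which went to 0.35 without the 2 farthest libraries. None of these marker lists had a gene at 0 in all libraries. The part of these cell types in the members' values was not tested.

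**Figure D4:**
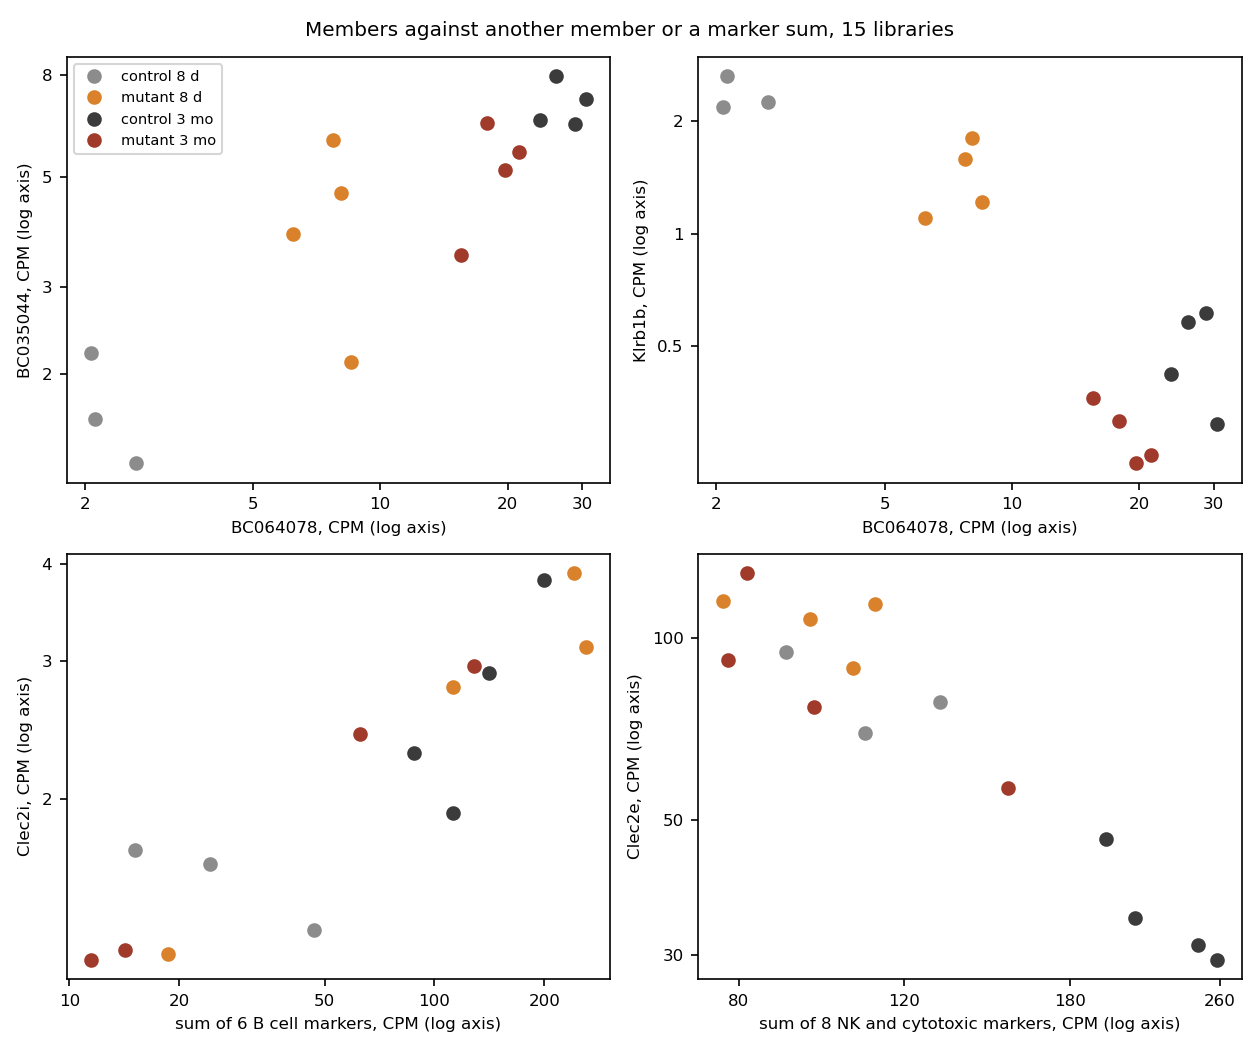
Each point is 1 of 15 libraries, coloured by group, on log axes in CPM. The upper panels set BC035044 and Klrb1b against BC064078, where the groups separate along the BC064078 axis. The lower panels set Clec2i against the sum of 6 B cell markers, where the 3 highest Clec2i levels are in the 3 libraries with the highest sums, and Clec2e against the sum of 8 NK and cytotoxic markers, where the 3-month controls lie lowest in Clec2e and highest in the markers.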

How the data were processed

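The authors deposited raw counts of reads for each Ensembl gene, with a table per cohort and a column per animal. The submitters' processing notes name TopHat2 2.0.10, Bowtie2 2.1.0, HTSeq 0.6.1 and mm9; strand handling is not given in the sources used here. The labels' protocols name ribosomal depletion of total RNA while the molecule label reads polyA RNA, which bears on transcripts without a polyA tail. The protocols allow 2 extraction methods without saying which sample had which. GENCODE M21 (GRCm38) and RefSeq GRCm38.p6 gave names, gene order, exon lengths and sequences, not coordinates of the counts. Symbols matched 87.45% of identifiers, and the rest held 0.675% of counts.

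Replicates are numbered in deposit order. Members, lists and tests were chosen with earlier results of these data known. Every fit covered the whole table: the quasi-likelihood F test of edgeR 4.0.16 in R 4.3.3, filterByExpr with a minimum count of 10, TMM scaling, and a call at a Benjamini-Hochberg adjusted p under 0.05. Each time was fitted alone, differences between times and between controls of both times in a joint fit of 15 libraries, and control genotypes among the 8 libraries of 3 months. Displayed CPM come from joint TMM scaling. Counts of libraries of a group always differed beyond sampling noise (lowest chi-square per degree of freedom 12.12). The 3-count level was 0.0566 to 0.115 CPM, for counting error only. The test was checked on simulated counts.

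Named genes were the members, NK complex genes that were called plus Clec2h, and the 5 nearest genes by each likeness measure whose mean log2 CPM was 0 or more. Correlations used log2 CPM, with 0.5 added for member pairs and marker sums. Transcripts and promoters were aligned with blastn 2.17.0. Alternatives were DESeq2 1.42.0, RLE scaling, no filter, a joint fit, leaving out Rfx6f/+ controls, and leaving out each library in turn.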

Additional observations from a re-analysis of the deposited data

Results flagged for a closer look

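Clec12a in the 3-month controls had 1 library far from the other 3: control replicate 4 (Rfx6f/f) stood at 1.48 CPM, against 2.53 to 2.62 CPM in replicates 1 to 3. Of 30 checks of a member in a group of 4 libraries this was the 1 that stood out, and chance gives about 1.5. Without that library the 3-month log2 fold change of Clec12a was -0.73 (adjusted p = 0.116), against -0.57 (adjusted p = 0.216) with it.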

How the results depend on the processing

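Of 545 alternative values for the 9 tested members, 499 kept their direction and their side of the threshold, 13 newly passed it, 21 no longer did and 12 changed sign. BC064078, which had no test, kept its direction in each of its 62 alternatives, at 1.68 to 1.86 at 8 days, -0.67 to -0.46 at 3 months and -2.41 to -2.20 for the difference. It was chosen for its directions by label and its groups do not overlap, so this count is a description only. The sign changes were in values not called in either setting: the difference of Clec2g (0.72 with Rfx6f/f controls only, and -0.76 to 0.34 with a library left out), the difference of Klrb1b (-0.088 to 0.17), and, between controls of the 2 times, Clec2g (-0.77 to 0.14 with a library left out, above 0 without 8-day or 3-month control replicate 1, and -1.18 with Rfx6f/f controls only) and Klrb1f (-0.50 to 0.026, above 0 without 8-day control replicate 1). The number of members called at 8 days was 1 with DESeq2 and 0 to 1 with a library left out. At 3 months the joint fit called Clec2e, Clec2d and Cd69. The number called there was 3 with DESeq2, 0 with Rfx6f/f controls only and 0 to 2 with a library left out. For the difference it was 4 with DESeq2, 1 without the filter and 0 to 2 with a library left out. The cause was not tested. Genes called over the whole table moved too: at 8 days from 16 to 176 with DESeq2, 27 without the filter, 25 in the joint fit and 8 to 200 with a library left out; at 3 months from 1586 to 2940 with DESeq2, 36 with Rfx6f/f controls only and 391 to 1521 with a library left out; for the difference from 141 to 1017, 223 without the filter, 5 with Rfx6f/f controls only and 10 to 749. Between controls of the 2 times it went from 8093 to 5197 with Rfx6f/f controls only, and between control genotypes from 0 to 42 with DESeq2. No paired analysis was possible because no label ties a mutant to a control animal. Depth limits Clec2g, Klrb1f and 3-month Klrb1b most, at 3 to 25 counts per library.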

Other observations

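Gm15987, an antisense gene annotated between Clec2g and BC064078 and chosen here after its values were seen, stood at 0.496, 0.412 and 1.43 CPM in 8-day controls and 0.851, 1.58, 5.91 and 4.13 CPM in 8-day libraries labelled mutant. At 3 months it stood at 7.03, 12.0, 7.13 and 2.76 CPM in controls and 2.49, 3.52, 1.84 and 2.99 CPM in libraries labelled mutant. The groups overlapped at both times, and because of how it was chosen no test is given.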
